A study of Homo sapiens with 8 samples.

Results

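The genes followed belong to the endoplasmic reticulum (ER) stress programme, 10 of the 57884 genes listed in the deposited expression tables, and all 10 were among the 17994 genes tested. They were chosen by symbol, with earlier results of these data known, as genes that the transcription factors ATF6 and XBP1 are known to drive. They are the chaperones HSPA5 and HSP90B1, the oxidoreductases PDIA4 and CRELD2, the co-chaperones DNAJB9, DNAJC3 and SDF2L1, the degradation factor HERPUD1, the secreted and luminal factor MANF, and XBP1 itself. Total RNA was sequenced from hTERT-RPE1, a human cell line of retinal pigment epithelial origin made immortal with telomerase. The 4 groups were cells labelled ATF3(-/-) in serine/glycine-free medium, cells labelled ATF3(-/-) in complete medium, wild-type cells in serine/glycine-free medium and wild-type cells in complete medium, with 8 h in the serine/glycine-free medium. By the labels no complete-medium library was kept for the same 8 h. The lack of serine and glycine, the change of medium and the time that passed therefore cannot be told apart. Each group holds 2 libraries, 1 from each of 2 independent experiments, which the series text calls batches. The labels do not say whether 1 clone or several carried the knockout label.

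When unfolded proteins build up in the ER, the sensors IRE1 (gene ERN1), ATF6 and PERK (gene EIF2AK3) start the unfolded protein response. ATF6 and the IRE1-spliced form of XBP1 then raise transcription of luminal chaperones and of the machinery that removes misfolded proteins. PERK acts through the translation factor eIF2α and the transcription factor ATF4, an arm shared with the amino acid sensor GCN2 and known as the integrated stress response. Loss of an amino acid can therefore engage ATF4 without a folding fault in the ER. The question put to the data was whether the ER genes followed the medium response, taken as the direction of an integrated stress response list of 22 genes, or opposed it, in each batch and under each genotype label.

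Promoter sequence is shown because ATF6 and XBP1 are known to act through short elements near the transcription start, and 6 of the 10 genes hold a match. Windows from 250 bases before to 50 bases after the start were taken from RefSeq (GRCh38.p14), where all 10 genes matched by symbol, with 12 windows in all. The ER stress response element was searched as CCAAT and CCACG with any 9 bases between them, and its second form as ATTGG and CCACG with any 1 base between them, on both strands. The first occurred in HSPA5, HSP90B1, XBP1 and CRELD2, against 0.0769% of all 35116 windows. It also occurred in 5 of 28 further genes of ER folding and quality control. Lists are counted by gene and the background by window. The 10 genes were chosen as known targets, so these contrasts only describe. The second occurred in HERPUD1 and SDF2L1, against 0.0541% of all windows. The amino acid response element bound by ATF4 and its partners, searched as TGATGNAA, occurred in HERPUD1 alone among the 10, against 3.62% of all windows. It occurred in 4 of 18 genes of the integrated stress response list that had a window. TGACGTGG (an element for ATF6 and XBP1) and TGACGTCA (the cyclic AMP response element, bound by ATF/CREB factors) had no match in the 10, against 0.729% and 1.85% of all windows. MANF, PDIA4, DNAJB9 and DNAJC3 held none of these letters in the window. A match describes letters only and shows no binding. The stretches from 200 bases to 1 base before the start follow, 5′ to 3′ on the gene's strand, with element matches in capitals: HERPUD1 at chr16:56931942-56932141 (+), XBP1 at chr22:28800570-28800769 (-), SDF2L1 at chr22:21642102-21642301 (+), HSPA5 at chr9:125241344-125241543 (-), HSP90B1 at chr12:103930210-103930409 (+) and CRELD2 at chr22:49918434-49918633 (+).
HERPUD1: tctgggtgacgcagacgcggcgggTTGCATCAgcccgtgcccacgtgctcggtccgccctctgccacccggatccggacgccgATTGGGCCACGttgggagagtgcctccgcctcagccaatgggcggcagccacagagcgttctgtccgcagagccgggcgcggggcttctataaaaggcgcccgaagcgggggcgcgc
XBP1: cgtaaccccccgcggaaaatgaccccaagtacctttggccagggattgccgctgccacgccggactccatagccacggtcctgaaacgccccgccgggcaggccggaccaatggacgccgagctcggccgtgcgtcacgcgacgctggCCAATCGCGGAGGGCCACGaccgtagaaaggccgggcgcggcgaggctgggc
SDF2L1: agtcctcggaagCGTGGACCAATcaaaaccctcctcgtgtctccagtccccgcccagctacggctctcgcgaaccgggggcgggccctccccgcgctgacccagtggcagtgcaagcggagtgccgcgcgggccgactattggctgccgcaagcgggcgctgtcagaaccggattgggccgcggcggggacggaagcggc
HSPA5: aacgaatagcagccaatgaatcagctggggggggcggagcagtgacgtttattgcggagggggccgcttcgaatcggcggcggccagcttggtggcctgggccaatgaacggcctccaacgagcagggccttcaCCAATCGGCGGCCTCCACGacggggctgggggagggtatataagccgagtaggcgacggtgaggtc
HSP90B1: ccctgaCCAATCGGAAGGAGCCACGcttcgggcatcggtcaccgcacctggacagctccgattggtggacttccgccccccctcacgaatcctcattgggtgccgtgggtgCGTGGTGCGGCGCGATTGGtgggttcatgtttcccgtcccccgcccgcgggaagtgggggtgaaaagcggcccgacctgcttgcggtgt
CRELD2: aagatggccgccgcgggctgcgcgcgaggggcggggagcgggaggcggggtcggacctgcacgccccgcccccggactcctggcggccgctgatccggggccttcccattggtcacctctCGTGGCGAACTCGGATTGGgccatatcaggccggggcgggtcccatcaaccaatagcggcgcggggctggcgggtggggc
In HERPUD1 the ER element lies 117 to 107 bases before the start, and the ATF4 element lies 176 to 169 bases before it, on the other strand and without overlap. The XBP1 match lies 52 to 34 bases and the HSPA5 match 66 to 48 bases before the start. HSP90B1 holds 1 match on each strand, 194 to 176 and 89 to 71 bases before the start. The matches of CRELD2 (80 to 62 bases before the start) and SDF2L1 (188 to 178) are on the opposite strand.

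Values are FPKM (fragments counted per length of transcript and per size of library), deposited in 1 table per batch and normalised separately, so groups were compared within a batch. FPKM sums per library ran from 2429662 to 3148153, and absolute depth is unknown. ATF3, the gene the genotype label names, was present in every library. In batch 1 it stood at 4.45 and 3.38 FPKM in knockout-labelled cells (serine/glycine-free and complete medium), against 6.46 and 3.47 FPKM in wild type. In batch 2 it stood at 57.3 and 20.8 FPKM in knockout-labelled cells, against 18.01 and 3.65 FPKM in wild type. A gene-level FPKM shows neither the edited site nor the protein, so the knockout can be neither shown nor refuted here. These cells are therefore called knockout-labelled throughout. The 10 retinal pigment epithelium markers summed to 4.55 to 15.3 FPKM, with 1 to 3 of 10 at 1 FPKM or more and OTX2 below 0.1 FPKM in all 8 libraries. Immune markers summed to 1.73 to 16.0 FPKM, with 1 of 6 at 1 FPKM or more. The knockout-labelled libraries of batch 2 stood apart: 10 epithelial markers summed to 886 and 1112 FPKM there, against 223 to 234 FPKM in knockout-labelled cells of batch 1 and 317 to 576 FPKM in wild type. The 10 mesenchymal markers summed to 208 and 213 FPKM there, against 1661 to 1820 FPKM in knockout-labelled cells of batch 1 and 714 to 1355 FPKM in wild type. VIM made up much of these sums, at 102 and 118 FPKM there and 638 and 598 FPKM in wild type of batch 2. Against that wild type, 7 of the 8 mesenchymal genes tested were lower in serine/glycine-free medium (median log2 difference -0.67). In complete medium 5 were lower and 3 higher (median -0.19). Wild type also differed between the batches (serine/glycine-free, then complete medium). Its mesenchymal sums were 1355 and 1323 FPKM in batch 1, and 781 and 714 FPKM in batch 2. SPARC had 343 FPKM in each medium of batch 1, and 1.66 and 0.62 FPKM in batch 2. KRT19 went from 0.14 and 0.28 FPKM to 216 and 321 FPKM, while KRT8 went from 213 and 249 FPKM to 34.5 and 55.0 FPKM. These 3 genes were picked after their values were seen. In whole cultures a smaller share of 1 kind of cell and less RNA per cell cannot be told apart.

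On the FPKM scale, which is per transcript length, HSP90B1 was the most abundant of the 10 in both batches, averaging 127 FPKM in batch 1 and 151 FPKM in batch 2 over the 4 libraries of each. HSP90B1 (GRP94) is the HSP90 of the ER lumen. DNAJB9 was the least abundant in both, at 5.44 and 10.3 FPKM, and DNAJC3 was the ninth in both. The order between these ends differed by batch: PDIA4 averaged 38.0 FPKM in batch 1 and 89.4 FPKM in batch 2, MANF 29.04 and 54.2 FPKM, and CRELD2 31.6 and 16.0 FPKM. The tables were normalised separately, so these shifts between batches were not tested.

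**Figure D1:**
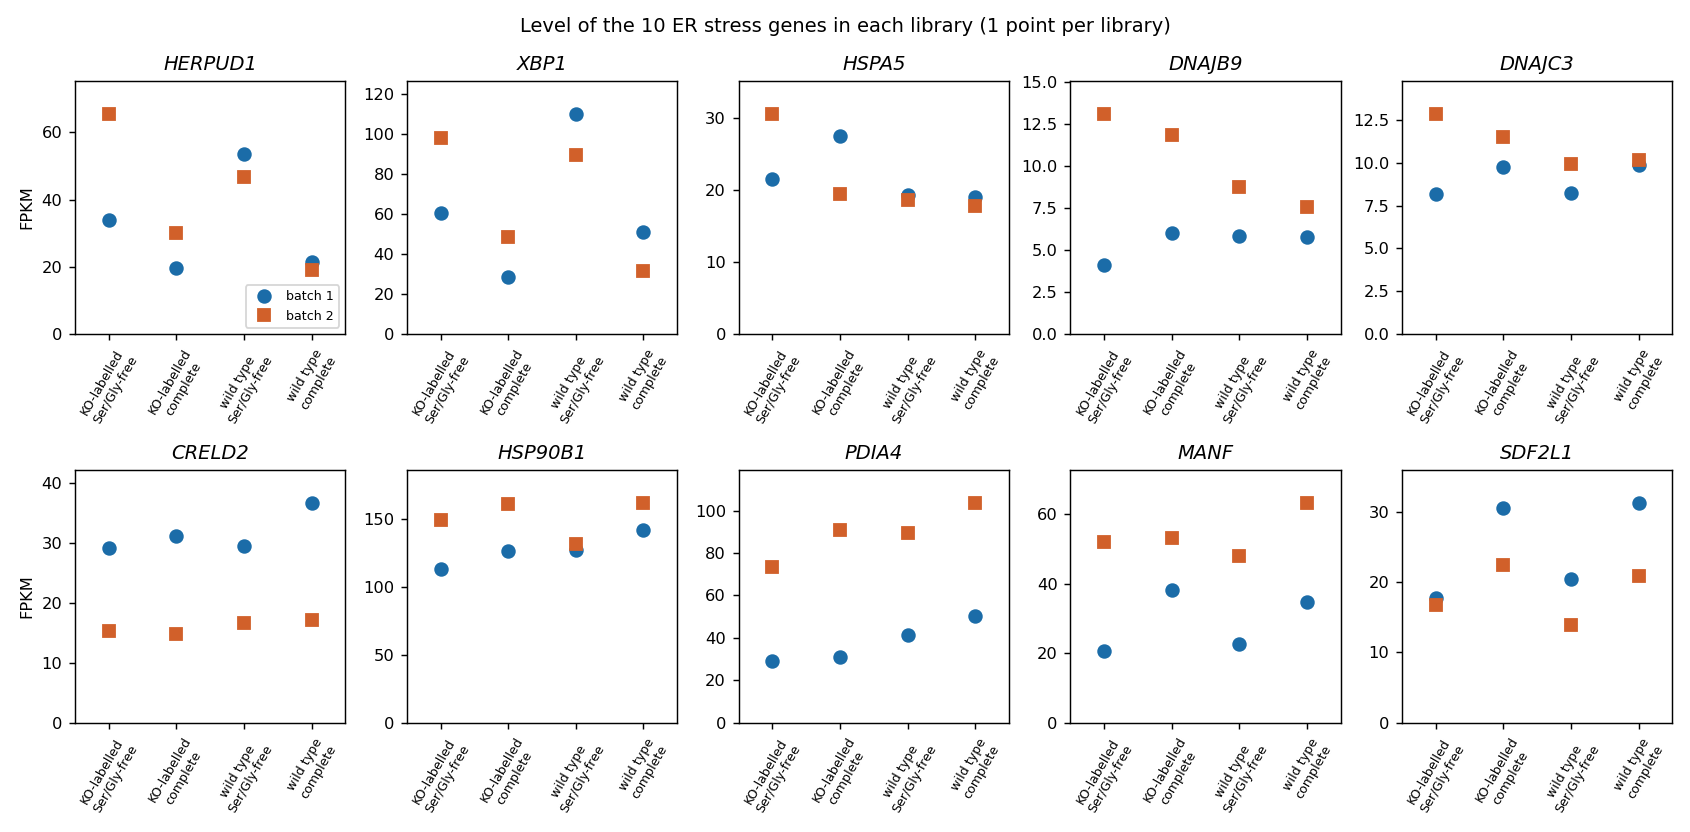
Level of each of the 10 genes in each of the 8 libraries (vertical axes in FPKM, starting at 0; 1 point per library, circles for batch 1 and squares for batch 2; groups by genotype label and medium). HERPUD1 and XBP1 stand higher in serine/glycine-free medium in every pair, while SDF2L1, MANF, PDIA4 and HSP90B1 stand lower.

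The 10 genes did not move as a block between complete and serine/glycine-free medium. HERPUD1 and XBP1 were higher in serine/glycine-free medium in all 4 pairs of libraries, each by more than 0.5 on the log2 scale. SDF2L1, MANF, PDIA4 and HSP90B1 were lower in all 4 pairs, and HSPA5, DNAJB9, DNAJC3 and CRELD2 went one way in some pairs and the other way in the rest. Of all genes tested, 14.6% were higher in all 4 pairs (1.01% by more than 0.5) and 11.4% were lower. Of the 10, 0 passed the threshold of the limma fit over all genes in the mean response, where 0.111% of all genes passed as higher and 0.0222% as lower. HERPUD1, XBP1, SDF2L1 and MANF had an unadjusted limma p under 0.05 in that response, where 6.16% of all genes did as higher and 3.87% as lower. Pairs here are serine/glycine-free against complete medium within 1 batch and 1 genotype label, and ratios are differences of log2(FPKM + 1).

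HERPUD1 encodes a membrane protein that organises the ubiquitin ligase complex of ER-associated degradation, and it is known as a target of both ATF4 and the ER element factors. In batch 1 HERPUD1 (ENSG00000051108, hg19 chromosome 16, 56965960 to 56977798) had 33.9 FPKM in serine/glycine-free and 19.6 FPKM in complete medium in knockout-labelled cells, and 53.6 and 21.4 FPKM in wild type. In batch 2 it had 65.5 FPKM in serine/glycine-free and 30.2 FPKM in complete medium in knockout-labelled cells, and 46.7 and 19.0 FPKM in wild type. Within each batch both serine/glycine-free libraries thus lay above both complete-medium libraries. The FPKM ratios were 1.73 and 2.17 in knockout-labelled cells (batches 1 and 2) and 2.50 and 2.45 in wild type. The mean response over both labels was a log2 fold change of 1.10 ± 0.22 (limma standard error over 8 libraries in 2 batches, adjusted p = 0.265, unadjusted p = 0.003). The fit behind this response blocks on batch and not on each pair. A genotype-label difference that turns with the batch therefore adds to its standard errors. HERPUD1 ranked 187th from the highest of 17994 genes by that response. It shares its locus with 2 sense-intronic transcripts, which stayed at or below 2.97 FPKM.

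XBP1, the transcription factor whose mRNA IRE1 splices, went the same way. In batch 1 XBP1 (ENSG00000100219, hg19 chromosome 22, 29190543 to 29196585) had 60.2 FPKM in serine/glycine-free and 28.3 FPKM in complete medium in knockout-labelled cells, and 110 and 50.7 FPKM in wild type. Batch 2 gave 98.1 FPKM in serine/glycine-free and 48.4 FPKM in complete medium in knockout-labelled cells, and 89.3 and 31.6 FPKM in wild type. In each batch both serine/glycine-free libraries lay above both complete-medium libraries. The FPKM ratios were 2.13 and 2.03 in knockout-labelled cells and 2.17 and 2.83 in wild type. The mean log2 fold change was 1.16 ± 0.27 (limma adjusted p = 0.298, unadjusted p = 0.005), 161st from the highest. A gene-level FPKM does not separate spliced from unspliced XBP1 mRNA.

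Both genes carried the same sign under each label when the labels were taken apart. For HERPUD1 the log2 fold change was 0.93 ± 0.31 in knockout-labelled cells (adjusted p = 0.892) and 1.27 ± 0.31 in wild type (adjusted p = 0.699; n = 2 pairs each, limma). For XBP1 it was 1.03 ± 0.38 in knockout-labelled cells (adjusted p = 0.892) and 1.28 ± 0.38 in wild type (adjusted p = 0.742). The difference of the responses, knockout-labelled minus wild type, was -0.34 ± 0.44 for HERPUD1 and -0.25 ± 0.54 for XBP1, and limma gave both an adjusted p of 1.0. Of the 10 genes, 0 were called for the difference (0.0278% of all genes as higher and 0.0333% as lower), and 0 had an unadjusted p under 0.05 (0.678% and 0.856%). The standard errors exceed these differences, and they also take in any genotype-label difference that turns with the batch. No difference was detected for these 2 genes. Of all genes tested 11 were called, with 0 among the 13080 protein-coding genes. Without the knockout-labelled serine/glycine-free library of batch 2 the response in knockout-labelled cells was 0.50 for HERPUD1 and 0.65 for XBP1. XBP1 stood at 0.61 in knockout-labelled cells without their complete library of batch 1, and at 0.76 in wild type without its complete library of batch 2.

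SDF2L1, which forms a luminal complex with the co-chaperone DNAJB11 and keeps clients soluble, was lower in all 4 pairs. In batch 1 SDF2L1 (ENSG00000128228, hg19 chromosome 22, 21996550 to 21998587) had 17.8 FPKM in serine/glycine-free and 30.6 FPKM in complete medium in knockout-labelled cells, and 20.4 and 31.3 FPKM in wild type. Batch 2 gave 16.7 FPKM in serine/glycine-free and 22.4 FPKM in complete medium in knockout-labelled cells, and 13.8 and 20.9 FPKM in wild type. Within each batch both serine/glycine-free libraries lay below both complete-medium libraries. The FPKM ratios were 0.581 and 0.749 in knockout-labelled cells and 0.652 and 0.664 in wild type, and the mean log2 fold change was -0.58 ± 0.13 (limma adjusted p = 0.291, unadjusted p = 0.005). SDF2L1 ranked 582nd from the lowest.

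MANF, an ER-resident and secreted protein that binds HSPA5, had a like sign and a less even size. In batch 1 MANF (ENSG00000145050, hg19 chromosome 3, 51422478 to 51426828) had 20.5 FPKM in serine/glycine-free and 38.1 FPKM in complete medium in knockout-labelled cells, and 22.7 and 34.8 FPKM in wild type. In batch 2 it had 52.0 FPKM in serine/glycine-free and 53.1 FPKM in complete medium in knockout-labelled cells, and 48.2 and 63.4 FPKM in wild type. The knockout-labelled pair of batch 2 was nearly level, with an FPKM ratio of 0.979, against 0.538 in batch 1, while the wild-type ratios were 0.654 and 0.760. The media overlap when the separately normalised batches are set together, and not within a batch. The mean log2 fold change was -0.47 ± 0.16 (limma adjusted p = 0.418, unadjusted p = 0.025), and it was -0.68 without the knockout-labelled libraries of batch 2.

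PDIA4 and HSP90B1 were lower in all 4 pairs by small amounts. PDIA4 (ERp72), a thiol oxidoreductase that forms and breaks disulfide bonds, had log2 ratios of -0.095 and -0.30 in knockout-labelled cells and -0.28 and -0.21 in wild type (batches 1 and 2). HSP90B1 had log2 ratios of -0.16 and -0.10 in knockout-labelled cells and -0.16 and -0.30 in wild type. In the mean response PDIA4 stood at -0.22 ± 0.12 (limma adjusted p = 0.601) and HSP90B1 at -0.18 ± 0.11 (adjusted p = 0.630). HSP90B1 (ENSG00000166598, hg19 chromosome 12, 104235229 to 104359486) ranged from 113 to 149 FPKM in serine/glycine-free and from 126 to 162 FPKM in complete medium, so the media overlap, as they did within batch 1 but not within batch 2. It shares its locus with 4 listed genes, of which the protein-coding C12orf73 stood at 2.16 to 12.3 FPKM.

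HSPA5 (BiP, also known as GRP78), the HSP70 of the ER lumen and a common readout of ER stress, did not follow the medium. In batch 1 HSPA5 (ENSG00000044574, hg19 chromosome 9, 127997132 to 128003609) had 21.5 FPKM in serine/glycine-free and 27.5 FPKM in complete medium in knockout-labelled cells, and 19.2 and 19.1 FPKM in wild type. Batch 2 gave 30.5 FPKM in serine/glycine-free and 19.5 FPKM in complete medium in knockout-labelled cells, and 18.6 and 17.7 FPKM in wild type. Wild type was level in both batches, and the knockout-labelled cells were lower in batch 1 and higher in batch 2. The log2 ratios were -0.34 and 0.62 in knockout-labelled cells and 0.013 and 0.068 in wild type, with a mean of 0.091 ± 0.18 (limma adjusted p = 0.922), and the mean was -0.15 without the knockout-labelled libraries of batch 2.

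The J-domain co-chaperones, which stimulate the ATPase of HSPA5, were split in the same way by batch in knockout-labelled cells. DNAJB9 (ERdj4; ENSG00000128590, hg19 chromosome 7, 108110866 to 108215294) had log2 ratios of -0.47 and 0.14 in knockout-labelled cells, and 0.0060 and 0.19 in wild type. DNAJC3 (ENSG00000102580, hg19 chromosome 13, 96329393 to 96447243; 8.21 to 12.9 FPKM) had log2 ratios of -0.22 and 0.14 in knockout-labelled cells, and -0.23 and -0.030 in wild type. Both have mean responses smaller than their standard errors, -0.035 ± 0.22 for DNAJB9 and -0.086 ± 0.15 for DNAJC3. DNAJB9 shares its locus with PNPLA8 (8.74 to 16.4 FPKM) and THAP5 (8.71 to 12.7 FPKM), both of a level like its own (4.08 to 13.1 FPKM), so its value is uncertain where the authors' counting could split reads. CRELD2 (ENSG00000184164, hg19 chromosome 22, 50293877 to 50321188; 14.8 to 36.7 FPKM), an ER protein with disulfide isomerase activity, had log2 ratios of -0.098 and 0.037 in knockout-labelled cells and -0.31 and -0.039 in wild type, with a mean of -0.10 ± 0.11. Its locus also holds ALG12, at 3.54 to 8.97 FPKM.

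**Figure D2:**
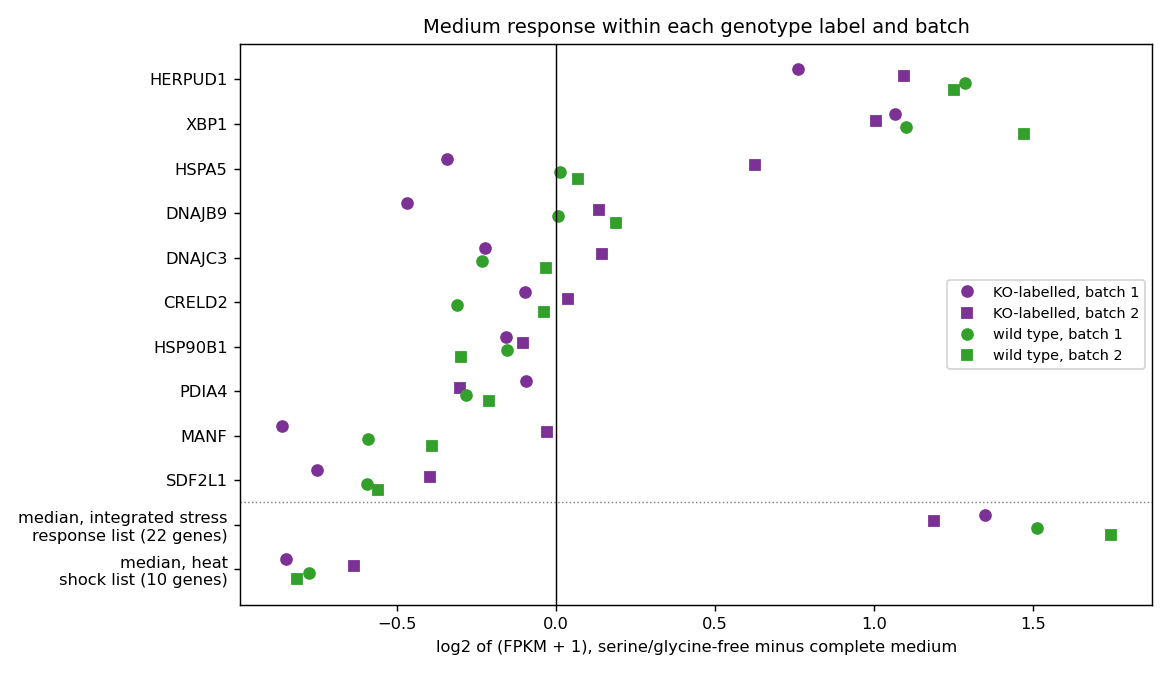
Difference of log2(FPKM + 1), serine/glycine-free minus complete medium, for each of the 10 genes in each pair of libraries (purple for knockout-labelled cells, green for wild type; circles for batch 1, squares for batch 2), with the medians of the integrated stress response and heat shock lists below. HERPUD1 and XBP1 lie between 0.76 and 1.47 in all pairs, and SDF2L1 between -0.75 and -0.40.

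Counted over the 10 genes, 2 were higher in all 4 pairs, where 14.6% of all genes tested were, and 4 were lower in all 4 pairs, where 11.4% were. Past 0.5 in all 4 pairs, 2 of 10 were higher (1.01% of all genes tested) and 0 were lower (0.339%). In the 3 pairs left without the knockout-labelled libraries of batch 2, 2 of 10 were higher in each (19.8% of all genes tested) and 6 were lower in each (16.7%), DNAJC3 and CRELD2 joining the lower genes. The median ratio of the 10 was -0.19 and 0.087 in knockout-labelled cells (batches 1 and 2) and -0.19 and -0.035 in wild type. In the same pairs the median of the integrated stress response list was 1.35 and 1.19 in knockout-labelled cells, and 1.51 and 1.74 in wild type. As a group the 10 genes therefore neither followed nor opposed the medium response: HERPUD1 and XBP1 had its sign in every pair, 4 genes had the opposite sign in every pair and the other 4 had no steady sign.

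In the fit over all genes, 0 of the 10 passed the adjusted threshold of 0.05 in the mean response, where 0.111% of all genes passed as higher and 0.0222% as lower. At an unadjusted p under 0.05, 2 of the 10 were higher (6.16% of all genes) and 2 were lower (3.87%) in the mean response. In knockout-labelled cells 2 were higher (3.34%) and 1 was lower (2.25%), and in wild type 2 were higher (3.72%) and 1 was lower (1.92%), with 0 called under either label at the adjusted threshold (0.0111% and 0.00556% of all genes, and 0.0389% and 0.0167%). The median over the 10 was -0.094 in the mean response, against 0.016 over all genes tested. A fit with protein-coding genes only and a block for each genotype label and batch, chosen after the data were seen, called HERPUD1 (adjusted p = 0.00432) and XBP1 (0.00305) in the mean response and both in wild type (0.0231 and 0.0194). It did not call them in knockout-labelled cells (0.0751 and 0.0540), and SDF2L1 had an adjusted p of 0.0529 in the mean response. Over the 13080 protein-coding genes, that fit called 265 in the mean response, 58 in wild type and 16 in knockout-labelled cells.

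Genes of the ATF4 arm were higher in serine/glycine-free medium in nearly every pair. Of the 22 genes of the integrated stress response list, 20 were higher in all 4 pairs, where 14.6% of all genes tested were. The list's median mean response was a log2 fold change of 1.43. Of the 22 genes, 6 rose by limma at an adjusted p under 0.05, against 0.111% of all genes tested. Like the other lists, it was chosen with earlier results of these data known, so its counts only describe. SLC7A11, the cystine and glutamate exchanger, rose by 2.19 ± 0.15 (adjusted p = 0.0175), and PCK2, the mitochondrial phosphoenolpyruvate carboxykinase, rose by 2.09 ± 0.15 (adjusted p = 0.0199). SARS, the cytosolic seryl-tRNA synthetase, rose by 1.43 ± 0.10 (adjusted p = 0.0199). The calls of SLC7A11 and PCK2 were lost when any 1 library other than the wild-type complete library of batch 1 was left out, and SARS was called in none of the 8 fits that drop a single library. Of 20 alternatives, SLC7A11 and PCK2 were called in 9 and SARS in 7, with the same direction in all. The mean responses of HERPUD1 and XBP1 lay below the median of that list.

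Most other ER genes lay near 0. Of 32 further genes of ER folding and quality control, 14 were higher and 18 lower in the mean response, with a median of -0.055, and 0 were called. At an unadjusted p under 0.05, 1 of the 32 was higher, where 6.16% of all genes were, and 1 was lower, where 3.87% were. The higher gene is HSPA13, a microsomal HSP70, at 0.69 ± 0.14 (limma adjusted p = 0.272, and adjusted p = 0.0364 in the fit chosen after the data were seen), and the lower gene is SDF2, the paralog of SDF2L1, at -0.33 ± 0.11 (adjusted p = 0.411). SEC24D, a coat subunit of vesicles that leave the ER, stood at -0.58 ± 0.25 (adjusted p = 0.514). SDF2 and SDF2L1 were both lower in all 4 pairs, at different sizes. Of the 32 genes, 7 were lower in all 4 pairs, where 11.4% of all genes tested were, and 3 were higher, where 14.6% were.

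Sensor genes did not share a direction. Of 7 sensor and site protease genes, 4 were higher and 3 lower, with a median of 0.15 and 0 called. ATF6 stood at 0.47 ± 0.13 (limma adjusted p = 0.354) and ERN1 at 0.67 ± 0.26 (adjusted p = 0.478), while EIF2AK3 stood at -0.52 ± 0.17 (adjusted p = 0.395). At an unadjusted limma p under 0.05, 2 of the 7 were higher (ATF6 and ERN1), where 6.16% of all genes were. By the same measure 1 was lower (EIF2AK3), where 3.87% were. The response of ERN1 was 0.17 in batch 1 and 1.17 in batch 2.

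Heat shock genes, whose products serve folding outside the ER, were lower in every pair. All 10 of that list, 8 cytosolic genes and the mitochondrial chaperonin genes HSPD1 and HSPE1, were lower in all 4 pairs, where 11.4% of all genes tested were, with medians of -0.85 and -0.63 in knockout-labelled cells (batches 1 and 2) and -0.78 and -0.82 in wild type. HSPA8, the constitutive cytosolic HSP70, fell by 1.18 on the log2 scale (standard error 0.11, limma adjusted p = 0.0439), and it was the only 1 of the 10 called. HSPA8 was called in 6 of 20 alternatives, and in none of the 8 that drop a single library. By label, HSPA8 stood at -0.70 ± 0.16 in knockout-labelled cells (adjusted p = 0.794) and -1.65 ± 0.16 in wild type (adjusted p = 0.0636, called in 3 of 21 alternatives). The difference was 0.95 ± 0.23, with 1.02 in batch 1 and 0.89 in batch 2 (limma adjusted p = 1.0, unadjusted p = 0.00561). Its ER relative HSPA5 had a mean response of 0.091 ± 0.18. HSP90AA1, a cytosolic relative of HSP90B1, stood at -0.85 ± 0.10 (adjusted p = 0.0743), and HSPA1A, whose reads may be split with the near-identical HSPA1B, at -2.19 ± 0.26 (adjusted p = 0.0789). Both were called in 2 of 20 alternatives, those with protein-coding genes only, with adjusted p down to 0.00428 for HSP90AA1 and 0.00821 for HSPA1A. In the mean response SDF2L1 (-0.58) lay within the range of the heat shock list. MANF (-0.47) and PDIA4 (-0.22) lay below only HSPD1 (-0.21) of that list and above the rest, of which HSPE1 was the highest (-0.51). HSPA5, DNAJB9, DNAJC3, CRELD2 and HSP90B1 lay above all of it.

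**Figure D3:**
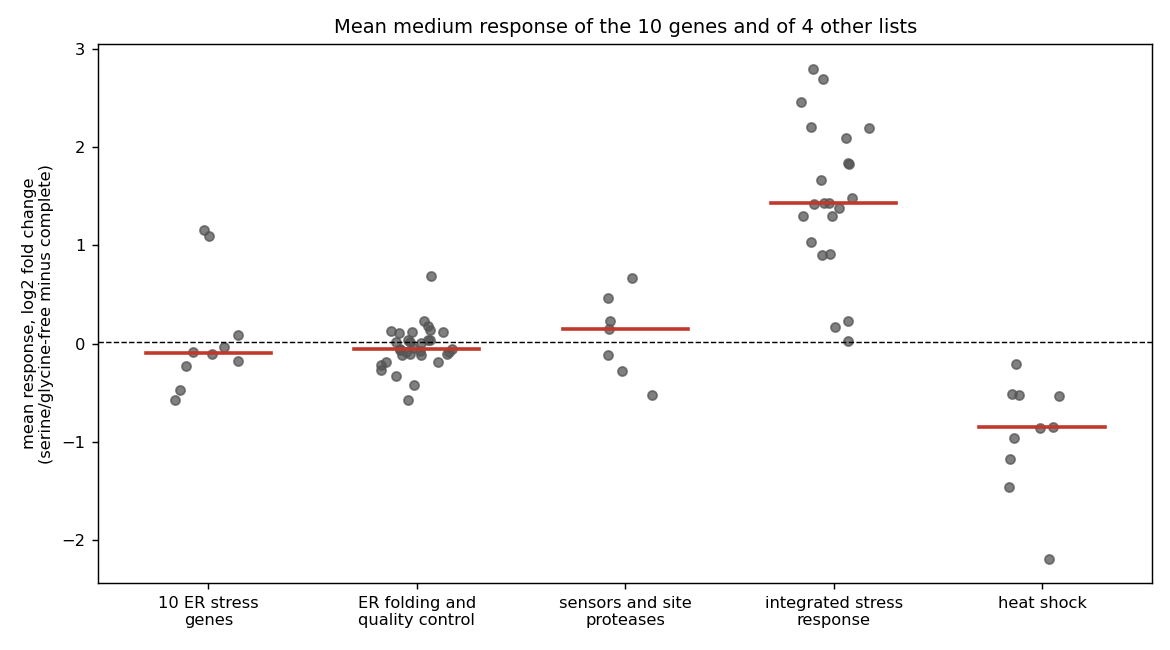
Mean medium response (log2 fold change, serine/glycine-free minus complete, over both genotype labels) of the 10 ER stress genes and of 4 other lists; 1 point per gene, red lines at list medians, dashed line at the median of all genes tested. HERPUD1 and XBP1 are the upper points of the first column, at 1.10 and 1.16, near the lower part of the integrated stress response column, whose median is 1.43.

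Under the knockout label, the genotype difference of several genes turned with the batch. XBP1 was lower in knockout-labelled cells than in wild type in batch 1, by log2 differences of -0.86 in serine/glycine-free and -0.82 in complete medium, and higher in batch 2, by 0.13 and 0.60. HERPUD1 likewise had -0.64 and -0.12 in batch 1, and 0.48 and 0.64 in batch 2. SDF2L1 (-0.19 and -0.031, then 0.26 and 0.097) and DNAJC3 (-0.0043 and -0.015, then 0.34 and 0.17) changed sign as well. In batch 1, however, DNAJC3 was nearly level in both media and SDF2L1 in complete medium. That pattern, lower in both media of batch 1 and higher in both of batch 2, held for 4 of the 10 genes and for 11.3% of all genes tested. It moves with the epithelial and mesenchymal marker sums and with ATF3 given above for the knockout-labelled libraries of batch 2. CDH1, the epithelial cadherin, had 56.2 and 59.96 FPKM in those libraries and at most 1.23 FPKM in the other 6, and VIM, a mesenchymal filament protein, had 102 and 118 FPKM there and 598 to 1247 FPKM elsewhere; both were picked after their values were seen. The part of these markers in the differences was not tested.

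PDIA4 was lower in knockout-labelled cells in all 4 comparisons within a batch and medium. In batch 1 PDIA4 (ENSG00000155660, hg19 chromosome 7, 148700154 to 148725733) had 29.1 and 31.2 FPKM in knockout-labelled cells (serine/glycine-free and complete medium), against 41.3 and 50.4 FPKM in wild type. In batch 2 it had 73.6 and 90.9 FPKM in knockout-labelled cells, against 89.4 and 104 FPKM in wild type. The knockout-labelled libraries lay below both wild-type libraries in batch 1, while in batch 2 they were lower only within each medium. The log2 fold change was -0.38 ± 0.17 in serine/glycine-free medium (limma adjusted p = 0.801) and -0.43 ± 0.17 in complete medium (adjusted p = 0.857, unadjusted p = 0.047), and its difference from wild type thus did not pass. CRELD2 was also lower in all 4 comparisons, with differences of -0.23 to -0.016, and 13.2% of all genes tested were lower in all 4. Of the 32 further ER folding and quality control genes, 18 were higher and 14 lower in knockout-labelled cells in serine/glycine-free medium, 14 were higher and 18 lower in complete medium, and 0 were called in either. HSPA5 was higher in all 4, with differences of 0.13 to 0.68, as were 8.34% of all genes, with log2 fold changes of 0.42 ± 0.25 in serine/glycine-free and 0.32 ± 0.25 in complete medium. At an unadjusted p under 0.05, PDIA4 was the 1 gene of the 10 in complete medium, as lower (1.92% of all genes were higher and 2.86% lower), and 0 of the 10 were in serine/glycine-free medium (1.98% and 3.88%). Of the 10 genes, 0 were called in either medium at the adjusted threshold, as were 0 of the 13080 protein-coding genes. Of all genes, 0.0111% were called as higher in each medium, and 0.0389% (serine/glycine-free) and 0.0222% (complete) as lower. The comparisons of the media and of the labels share libraries, so their values are given side by side and not related to each other.

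**Figure D4:**
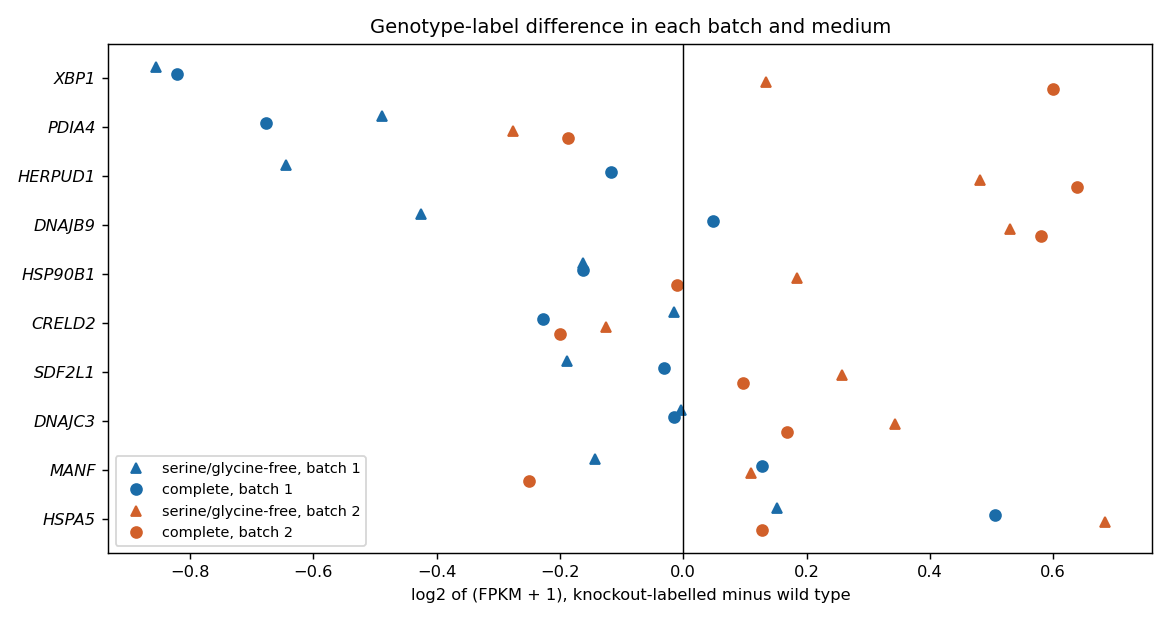
Difference of log2(FPKM + 1), knockout-labelled minus wild type, for each of the 10 genes in each batch and medium (triangles for serine/glycine-free and circles for complete medium; blue for batch 1, orange for batch 2). XBP1 and HERPUD1 have opposite signs in the 2 batches, while all 4 points of PDIA4 and CRELD2 lie below 0 and all 4 of HSPA5 above it.

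The expression profile most like the mean of the 10 genes was sought among 4609 genes at 10 FPKM or more in all libraries, with each gene centred within its batch. The 5 highest Pearson correlations over the 8 libraries were those of GABARAPL2 (0.996), VIMP (0.986), TPD52 (0.978), POLR2K (0.977) and CHD2 (0.972). VIMP is also a member of the ER folding and quality control list. The mean profile was highest in the knockout-labelled serine/glycine-free library of batch 2, 0.21 above its batch mean, and it joins genes that went opposite ways, so these values only describe the 8 libraries.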

How the data were processed

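RNA of 8 hTERT-RPE1 cultures was sequenced, 2 per group and 1 per batch. The deposited values are FPKM, which the authors made with TopHat, Cufflinks and Cuffdiff on hg19 per the submitters' processing notes, with 1 table for each batch; tool versions and strand use are not stated there. Loci are the authors' merged loci, with starts changed to 1-based. The 17994 genes that reached an FPKM of 1 in 2 or more libraries were tested on log2(FPKM + 1), which understates changes of low genes. Limma 3.58.1 (R 4.3.3) fitted 4 group means with batch as a block, because the series text ties equal replicate numbers to 1 batch of cells; deviations of libraries with the same number correlated at 0.650 to 0.775 over 6 pairs of groups, as any difference between the tables would also give. The p-values are two-sided, adjusted by Benjamini-Hochberg (threshold 0.05), on 3 residual and 2.97 prior degrees of freedom. The steps were tested on simulated data. Alternatives varied pseudocount, filter, scaling, block, prior and libraries. The 10 genes and the lists were chosen with earlier results of these data known. All 10 are named in every comparison; of other lists, up to 3 genes with the smallest p in a comparison are named. No interval for counting error is given, since read counts were not used here.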

Additional observations from a re-analysis of the deposited data

Results flagged for a closer look

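For 4 of the 10 genes the difference between knockout-labelled and wild-type cells was below 0 in both media of batch 1 and above 0 in both media of batch 2, with 1 library on each side of every difference and no test of the turn. The batch 2 mean minus the batch 1 mean of that log2 difference was 1.21 for XBP1, 0.94 for HERPUD1, 0.29 for SDF2L1 and 0.27 for DNAJC3. In batch 1 the differences were nearly level for DNAJC3 (-0.0043 and -0.015) and for SDF2L1 in complete medium (-0.031). All genes tested showed the same change of sign in 11.3% of cases. In batch 2 the knockout-labelled libraries also held more ATF3, CDH1 and summed epithelial markers and less VIM than the wild-type libraries of that batch, and the part of these in the turn was not tested.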

How the results depend on the processing

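In all 20 alternatives of the mean medium response HERPUD1 and XBP1 stayed above 0, and SDF2L1, MANF, PDIA4 and HSP90B1 stayed below 0. Of the 10 ER genes, 0 were called in any comparison as reported and in the alternatives, except that 1 setting added after seeing the data (protein-coding genes only, with a replicate block per genotype label and batch) called 2, HERPUD1 and XBP1, in the mean response and in wild type. Of the 13080 protein-coding genes that setting called 265 in the mean response, 58 in wild type and 16 in knockout-labelled cells. It called 0 for the difference of the responses. The fit as reported called 24, 10, 3 and 11 of 17994 genes in these comparisons. Where a value below differs from the reported one, the cause was not tested.

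Without the knockout-labelled libraries of batch 2, the mean response of HSPA5 was -0.150 and its response in knockout-labelled cells -0.341, and the members' median for the difference of the responses was -0.198. In the same setting the genotype difference in serine/glycine-free medium was -0.127 for HSP90B1, -0.471 for DNAJB9, -0.0552 for DNAJC3 and -0.198 for SDF2L1, and in complete medium -0.0224 for SDF2L1, -0.127 for HERPUD1 and 0.179 for MANF. Scaling to the sum over protein-coding genes gave a wild-type response of -0.0280 for HSPA5, and genotype differences for MANF of 0.0469 in serine/glycine-free and 0.000354 in complete medium; median-of-ratios scaling gave MANF 0.0395 in serine/glycine-free medium.

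The number of genes called moved as follows. For the wild-type response it was 6 with no filter on low values, 6 with protein-coding genes only, and 1 both with only the 2 groups compared and the replicate block and without the knockout-labelled libraries of batch 2. For knockout-labelled cells it was 5 with a pseudocount of 5, 5 with a replicate block per genotype label and batch, 5 with a prior without trend, 1 with protein-coding genes only and 0 without those batch 2 libraries. For the mean response it was 2 with a pseudocount of 0.1, 0 with no filter, 1 with no replicate block, 13 with a prior without trend, 39 with protein-coding genes only and 0 without those libraries. For the difference of the responses it was 3 with a pseudocount of 0.1, with no filter, with an FPKM minimum of 5 and with no replicate block, 7 with a pseudocount of 5 and with the block per genotype label and batch, 0 with protein-coding genes only and 1 without those libraries. For the genotype difference in serine/glycine-free medium it was 0 with protein-coding genes only, 3 with only the 2 groups compared and 0 without those libraries. In complete medium it was 1 with no filter, 0 with protein-coding genes only, 0 with only the 2 groups compared and 2 without those libraries.

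Leaving out 1 library at a time, with the lone library of a group assumed to vary like the other groups, the genes called ranged from 8 to 19 for the wild-type response, 3 to 13 for knockout-labelled cells, 0 to 21 for the mean response, 3 to 9 for the difference of the responses, and 2 to 14 for the genotype difference in either medium. The mean response had 0 called genes without either wild-type serine/glycine-free library and without the knockout-labelled complete library of batch 1. The members' median ranged from -0.26 to -0.037 for the wild-type response, -0.24 to 0.086 for knockout-labelled cells, -0.21 to -0.034 for the mean response, -0.21 to 0.19 for the difference of the responses, -0.23 to 0.24 for the genotype difference in serine/glycine-free medium and -0.094 to 0.19 in complete medium. In knockout-labelled cells some responses kept their sign but moved by over 1.5 times: MANF to -0.15 and -0.74 without a complete library (batches 1 and 2) and -0.19 and -0.70 without a serine/glycine-free one, SDF2L1 to -0.36 without the serine/glycine-free library of batch 1, PDIA4 to -0.38 and -0.012 without a complete library, and HSP90B1 to -0.030 at the least and -0.23 at the most without 1 of the 4. In wild type PDIA4 moved to -0.11 and -0.39 without a complete library and -0.15 without the serine/glycine-free library of batch 2, and HSP90B1 to -0.36 and -0.096 without a serine/glycine-free library. In the mean response PDIA4 moved to -0.13 without the knockout-labelled complete library of batch 2 and HSP90B1 to -0.11 when the batch 2 wild-type library in serine/glycine-free medium was dropped. The mean response of CRELD2 ranged from -0.15 to -0.051. Among responses that changed sign, HSPA5 ranged from -0.0034 to 0.084 in wild type, -0.21 to 0.49 in knockout-labelled cells and -0.083 to 0.26 in the mean. DNAJB9 ranged from -0.21 to 0.41 in wild type, -0.62 to 0.28 in knockout-labelled cells and -0.26 to 0.19 in the mean. DNAJC3 ranged from -0.29 to 0.024 in wild type, -0.25 to 0.17 in knockout-labelled cells and -0.19 to 0.020 in the mean, and CRELD2 from -0.089 to 0.028 in knockout-labelled cells. The difference of the responses ranged from -0.78 to 0.28 for XBP1 and -0.77 to 0.082 for HERPUD1. The genotype difference in serine/glycine-free medium ranged from -0.51 to 0.34 for HERPUD1, -0.74 to 0.021 for XBP1, -0.12 to 0.14 for HSP90B1, -0.40 to 0.50 for DNAJB9, -0.042 to 0.38 for DNAJC3, -0.18 to 0.25 for SDF2L1, -0.17 to 0.034 for CRELD2 and -0.27 to 0.24 for MANF. In complete medium it ranged from -0.64 to 0.42 for XBP1, -0.041 to 0.56 for HERPUD1, -0.079 to 0.23 for DNAJC3, -0.075 to 0.14 for SDF2L1 and -0.36 to 0.24 for MANF. Every value rests on 2 experiments of unknown absolute depth, and their 2 tables were normalised separately.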
